A study of Mus musculus with 8 samples.

Results

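Cholesterol synthesis and SREBP target genes were examined in mouse embryonic stem cells after knockdown of Mkrn1, which encodes an RNA-binding E3 ubiquitin ligase. The set was chosen by name, with earlier results of these data known. It comprised 31 genes, among them enzymes of the route from acetyl-CoA to cholesterol in pathway order. The others were the SREBP transcription factors, the proteins that hold or release them, the sterol carrier Stard4 and SREBP-induced enzymes of fatty acid synthesis. Of the 31 genes, 30 were among the 19937 genes of the array that had a probe set with a single symbol. Acat2, the thiolase of the opening step, had no such probe set and was not analysed here. In the 4 control samples male R1 cells, an embryonic stem line of mixed 129X1 x 129S1 origin, carried the plasmid pLKO.1 with a hairpin against GFP (shGFP). In the 4 knockdown samples the same cells carried pLKO.1 with a hairpin against MKRN1 (shMKRN1). The medium held 15% serum for every sample. Both groups were transfected transiently with 2 µg of plasmid, held for 4 days in 2 µg/mL puromycin and lysed 6 days after transfection, so each sample is a selected population and not a clone. The knockdown rests on 1 hairpin sequence, shown here 5′ to 3′ because it is the agent whose effect is measured.
shMKRN1 hairpin: gcgagatgttgcttatgcttt

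Cells make cholesterol from acetyl-CoA by way of mevalonate, the isoprenoids and squalene. When sterols are low, SCAP escorts SREBP from the endoplasmic reticulum to the Golgi, where proteases release its active domain; when sterols are high, INSIG proteins hold the complex back. SREBP-2 mainly induces the sterol genes and SREBP-1 the fatty acid genes, usually together with the factor NF-Y bound at a nearby CCAAT box. Because most enzymes of the route share this control, they are known to rise and fall together when sterol supply changes.

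The RNA was measured on Affymetrix gene arrays, with the authors' RMA values on a log2 scale, in which a difference of 1 is a doubling. Array medians lay between 7.14 and 7.24. On the leading principal component (37.6% of the variance) arrays shGFP 7 at 23.2 and shMKRN1 8 at 7.46 stood apart from the other arrays of their groups (-3.45 to 6.20 and -15.2 to -6.02). Mkrn1 itself was at 66.2% of the control level in shMKRN1 (95% confidence interval 61.0% to 71.7%; limma adjusted p = 0.000767). It was lower in all 4 knockdown arrays than in any control array (exact two-sided permutation p = 0.0286, the smallest possible over 70 assignments). Of 12 embryonic stem cell markers, all lay above 6.50, the 95th percentile of 1194 olfactory and vomeronasal receptor genes taken as silent. By limma 1 rose and none fell, against 3.66% and 0.838% of all genes. A higher mean was seen in 4 and a lower one in 8. At an unadjusted p under 0.05, 3 were higher and 1 lower, against 13.7% and 5.78% of all genes. The marker that rose was the pluripotency factor gene Nanog (0.25, SE 0.050; limma adjusted p = 0.0256), a call kept in 4 of the 8 fits without 1 array.

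The cholesterol and SREBP genes as a set differed little between the hairpins. All 30 lay above the silent receptor level in every array. Ebp and Acss2 rose, no member fell, and 28 did not pass the test. Over all genes 4.49% were called in either direction. The 2 that rose make 6.67% of the measured members, against 3.66% of all genes called higher and 5.48% of the genes that, like every member, lay above the median level of all genes. No member was called lower by limma at an adjusted p of 0.05, against 0.838% of all genes. At an unadjusted p under 0.05, 8 of 30 members were higher and 1 of 30 lower, against 13.7% and 5.78% of all genes. The share higher was thus above that of all genes. For genes above the median level this share was not counted. A higher mean in shMKRN1 was seen in 20 of 30 members (66.7%), against 52.8% of all genes and 63.4% of those above the median level. The median difference of the members was 0.04 on the log2 scale, that of genes above the median level also 0.04, and that of all genes 0.01. The member median was 0.02 without shGFP 1 and 0.08 without shGFP 5. In bulk samples like these, a change in the share of cells that express a gene and a change in RNA per cell cannot be told apart.

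**Figure D1:**
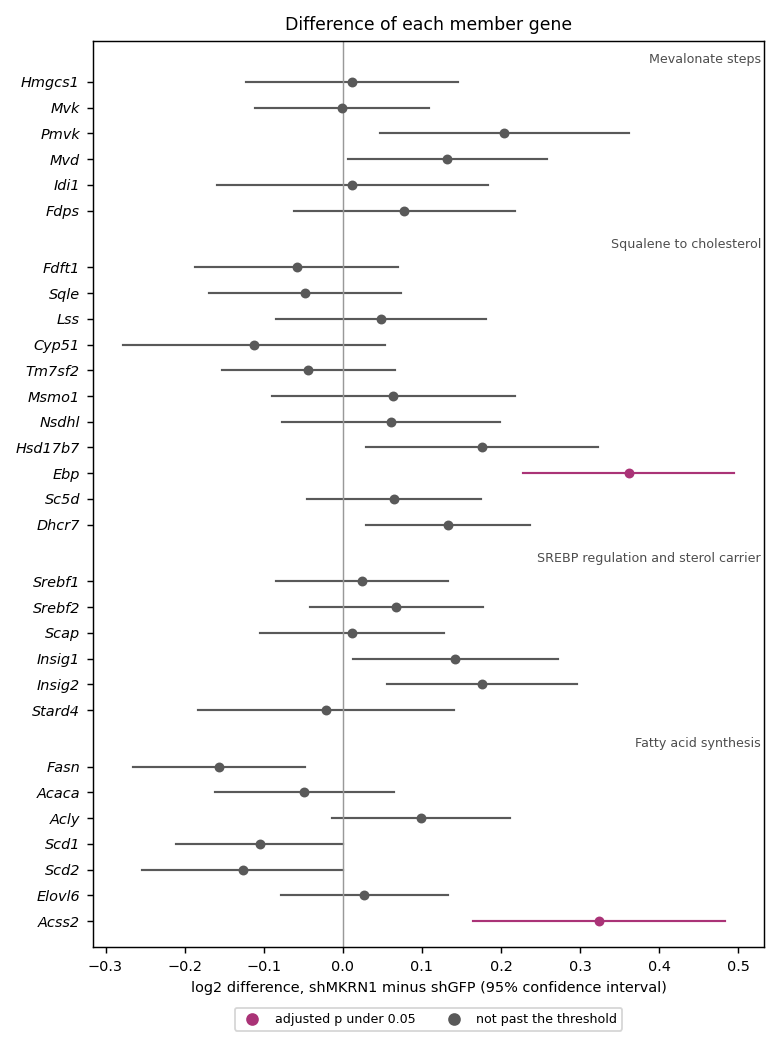
Log2 difference, shMKRN1 minus shGFP, of the 30 measured members in pathway order, with 95% confidence intervals from limma (4 arrays a group). Ebp and Acss2, the coloured points, passed the adjusted threshold, and the other 28 intervals lie between -0.28 and 0.36.

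The size of change that these arrays leave room for was small for most members. Of the 28 that did not pass, all had a 95% interval within a 1.3-fold change in either direction and 22 within 1.2-fold. This counts Idi1 by the brighter of its probe sets; the interval of the dimmer one reached 0.83 on the log2 scale. RMA understates changes of dim probe sets, and these intervals are on its scale. For 23 of 30 members the range over the 4 control arrays was wider than the difference between the group means. A range of single arrays is set there against a difference of means. The share of all genes that meet this was not counted.

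Ebp encodes the sterol isomerase that moves the ring double bond late in cholesterol synthesis, and it had the smallest p of the members. Its log2 level (probe set 10603485) was 8.52, 8.55, 8.52 and 8.46 in arrays shGFP 1, 3, 5 and 7, and 9.01, 8.85, 8.87 and 8.76 in arrays shMKRN1 2, 4, 6 and 8. Every knockdown array was above every control array, with shMKRN1 2 the highest. The means were 8.51 ± 0.036 and 8.87 ± 0.10 (SD, n = 4 each), a 1.28-fold rise (0.36, SE 0.060; limma adjusted p = 0.0109). The call held without each array in turn, at limma adjusted p-values of 0.0110 to 0.0407.

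Acss2 encodes the enzyme that makes acetyl-CoA from acetate in cytosol and nucleus, the building block of both sterols and fatty acids. Its level (probe set 10477649) was 7.86, 7.85, 8.10 and 7.87 in shGFP 1, 3, 5 and 7, and 8.18, 8.16, 8.31 and 8.33 in shMKRN1 2, 4, 6 and 8. The groups did not overlap, and shGFP 5 lay nearest to the knockdown arrays. The rise was 1.25-fold (7.92 ± 0.12 to 8.24 ± 0.087, SD, n = 4 each; 0.32, SE 0.072; limma adjusted p = 0.0336). It was less firm than that of Ebp: leaving out any 1 array other than shGFP 5 ended the call (limma adjusted p up to 0.111), as did adjusting over all probe sets (0.0803), while without shGFP 5 the difference was 0.38.

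The promoters of both genes are shown with that of Hmgcs1, the sole member whose promoter window held the full sterol regulatory element and so the one to compare them with (chosen after its sequence was searched). The windows are from RefSeq, build GRCm38.p6, 250 bases before to 50 after the transcript start, 5′ to 3′ in the direction of the gene. Capitals mark the NF-Y box CCAAT, read on the other strand as ATTGG, and the sterol element TCACNCCAC.
Ebp (chrX:8193463-8193762, minus strand): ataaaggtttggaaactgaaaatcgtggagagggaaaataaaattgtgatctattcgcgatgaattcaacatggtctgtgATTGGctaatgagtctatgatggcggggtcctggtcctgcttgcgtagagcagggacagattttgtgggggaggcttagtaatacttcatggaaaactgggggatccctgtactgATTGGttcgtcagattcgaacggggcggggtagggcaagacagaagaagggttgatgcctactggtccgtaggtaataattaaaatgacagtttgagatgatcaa
Acss2 (chr2:155517793-155518092, plus strand): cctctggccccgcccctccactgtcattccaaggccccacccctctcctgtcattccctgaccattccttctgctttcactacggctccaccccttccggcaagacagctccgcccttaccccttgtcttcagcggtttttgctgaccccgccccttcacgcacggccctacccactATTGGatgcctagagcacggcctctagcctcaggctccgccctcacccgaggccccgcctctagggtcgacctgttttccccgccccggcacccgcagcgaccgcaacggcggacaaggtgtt
Hmgcs1 (chr13:119690101-119690400, plus strand): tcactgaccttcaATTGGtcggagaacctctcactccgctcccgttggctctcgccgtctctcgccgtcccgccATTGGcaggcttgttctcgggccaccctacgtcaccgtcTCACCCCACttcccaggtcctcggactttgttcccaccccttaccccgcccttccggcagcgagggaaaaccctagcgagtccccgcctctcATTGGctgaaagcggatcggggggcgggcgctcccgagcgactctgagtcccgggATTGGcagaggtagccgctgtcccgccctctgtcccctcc

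In these windows Ebp has CCAAT boxes beginning 170 and 55 bases before the start, Acss2 has 1 at 73 bases and Hmgcs1 has 4, with its sterol element at 137 bases before the start. Of the 31 genes, 25 had a promoter window in the RefSeq table. A CCAAT box on either strand was present in 21 of these 25 (84%), against 41.1% of all 27025 genes of that table and 41.7% of those also on the array (by window, 37.4% of 32851). The Sp1 box GGGCGG was also in 21 (84%), against 38.2% and 52.9% by gene and 35.7% by window. The sterol element TCACNCCAC was in 1 (4%), against 1.44% of all genes and 1.24% of windows. Its core CACCCCAC, which overlaps the full element, was in Hmgcs1 and Acat2, against 3.30% of genes and 2.87% of windows. These are matches of letters in short windows, given with no test, and no match says only that the letters are not in the window. Ebp and Acss2, which rose, and Hmgcs1, whose difference was near 0, all hold a CCAAT box.

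In the mevalonate steps none of 6 measured genes passed limma. At an unadjusted p under 0.05 there were 2, both higher, against 13.7% higher and 5.78% lower among all genes. Hmgcs1, the cytosolic HMG-CoA synthase and a classical SREBP-2 target, was at 10.63, 10.65, 10.85 and 10.77 in shGFP 1, 3, 5 and 7, and at 10.73, 10.74, 10.70 and 10.77 in shMKRN1 2, 4, 6 and 8. The knockdown arrays lay inside the range of the controls. Its difference was 0.01, with a 95% interval of -0.12 to 0.15 (limma adjusted p = 0.949). The mevalonate kinase gene Mvk had a difference of -0.00 (interval -0.11 to 0.11) and the farnesyl diphosphate synthase gene Fdps one of 0.08 (interval -0.06 to 0.22), both with overlapping groups. Pmvk, the phosphomevalonate kinase gene, was at 7.57, 7.67, 7.66 and 7.78 in the control arrays and at 8.05, 7.80, 7.79 and 7.85 in the knockdown arrays in the same order. The groups did not overlap, by a narrow margin, and shMKRN1 2 was the highest. The difference of 0.20 (SE 0.071) did not pass (limma adjusted p = 0.141). Mvd, the decarboxylase that follows, had a difference of 0.13 (SE 0.056; limma adjusted p = 0.230) with overlapping groups.

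Idi1, the isomerase that makes the isoprenoid pair from which longer chains are built, had 2 probe sets that gave different values. The brighter one, used here because the probe set with the highest mean stands for a gene, was at 10.34, 10.27, 10.59 and 10.41 in the control arrays and at 10.35, 10.54, 10.43 and 10.33 in the knockdown arrays, a difference of 0.01 (SE 0.077; limma adjusted p = 0.961). The dimmer one was at 9.28, 9.10, 9.55 and 9.83 in the control arrays and at 10.03, 9.83, 9.74 and 10.05 in the knockdown arrays. There 3 control arrays lay below every knockdown array, while shGFP 7 lay among them. Its difference was 0.47 (SE 0.155), with a 95% interval of 0.12 to 0.83, and it did not pass when adjusted over all 34760 probe sets (limma adjusted p = 0.179). The annotation credits both probe sets to the same Idi1 transcripts, and which of them reports the gene was not settled. By number the dimmer one (10403413) stands beside a probe set of Idi2 (10403420), while the brighter one (10482762) does not. Where each lies in the genome was not checked. The member counts and the member median use the brighter one. They leave out the difference of 0.47, which had an unadjusted limma p of 0.0147. With the mean of both Idi1 probe sets, the difference was 0.24 (limma adjusted p = 0.183). The other members with 2 probe sets, Fdft1 and Acaca, had differences of -0.02 and 0.08 in their dimmer probe sets, against -0.06 and -0.05 in those used.

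**Figure D2:**
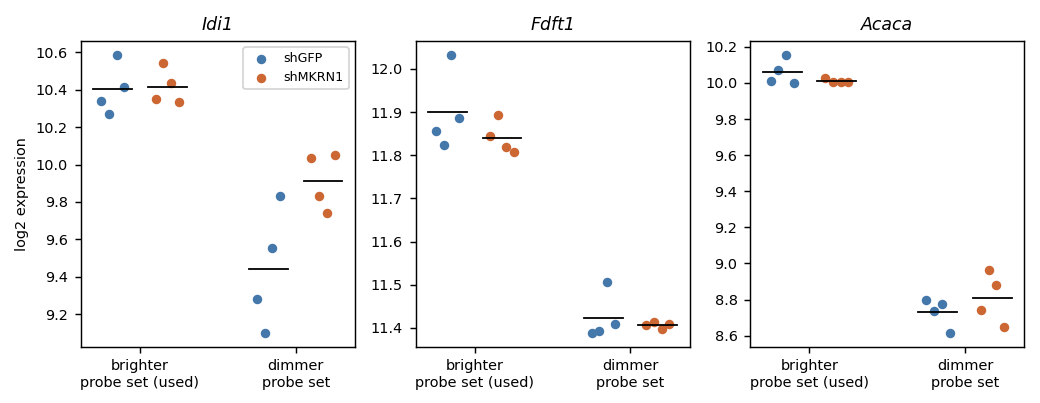
Log2 expression on each array for the 3 members with 2 probe sets; points are arrays, blue for shGFP and orange for shMKRN1, and bars are group means. The dimmer Idi1 probe set spreads from 9.10 to 9.83 over the controls and differs by 0.47 between groups, while the brighter one differs by 0.01.

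From squalene to cholesterol, Ebp rose and the other 10 of 11 genes did not pass. By limma 3.66% of all genes were called higher and 0.838% lower. At an unadjusted p under 0.05, 3 of the 11 were higher and none lower, against 13.7% and 5.78% of all genes. Sqle, the squalene epoxidase and a rate-limiting step, was at 10.41, 10.55, 10.61 and 10.52 in the control arrays and at 10.47, 10.46, 10.47 and 10.50 in the knockdown arrays. The knockdown arrays fell inside the control range, and the difference was -0.05 with an interval of -0.17 to 0.07 (limma adjusted p = 0.707). Fdft1 (squalene synthase, -0.06), Cyp51 (lanosterol demethylase, -0.11), Tm7sf2 (a sterol reductase, -0.04), Lss (lanosterol synthase, 0.05), Msmo1 and Nsdhl (which act in turn to strip methyl groups from the sterol ring, 0.06 each) and Sc5d (a sterol desaturase, 0.06) had limma adjusted p-values of 0.466 to 0.729. Dhcr7, the reductase that completes cholesterol, was at 9.44, 9.47, 9.50 and 9.47 in the control arrays and at 9.59, 9.55, 9.62 and 9.65 in the knockdown arrays. These groups did not overlap, yet the difference of 0.13 (SE 0.047) did not pass (limma adjusted p = 0.146); it passed among genes above the median level alone (0.0453). Hsd17b7, a ketosteroid reductase of the same route, differed by 0.18 (SE 0.066; limma adjusted p = 0.172) with overlapping groups, and passed with array weights (0.0415). The direct neighbours of Ebp in the pathway thus had smaller differences than Ebp; differences between genes were not tested.

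Among the regulators none of 6 genes passed limma. At an unadjusted p under 0.05, 2 were higher and none lower, against 13.7% and 5.78% of all genes. Srebf2, which encodes SREBP-2, was at 10.44, 10.50, 10.55 and 10.52 in the control arrays and at 10.63, 10.53, 10.54 and 10.58 in the knockdown arrays, overlapping groups with a difference of 0.07 (interval -0.04 to 0.18; limma adjusted p = 0.511). Srebf1 differed by 0.02 and Scap by 0.01 (limma adjusted p = 0.845 and 0.943). Insig2, one of the proteins that retain SCAP and SREBP, was at 8.98, 8.87, 9.00 and 8.86 in the control arrays and at 9.13, 9.10, 9.14 and 9.03 in the knockdown arrays. The groups did not overlap, and the difference of 0.18 (SE 0.054) stayed short of the threshold (limma adjusted p = 0.101). It passed with array weights (0.0149) and among genes above the median level alone (0.0334). Insig1, the family member that is itself a strong SREBP target, differed by 0.14 (SE 0.058; limma adjusted p = 0.210), with overlapping groups. Stard4, a carrier of cholesterol between membranes and an SREBP-2 target, differed by -0.02 (interval -0.18 to 0.14).

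In fatty acid synthesis 3 of 7 members had a higher and 4 a lower mean in shMKRN1, and the median difference was -0.05. Among all genes 52.8% had a higher mean. Acss2 was the member that rose by limma and none fell, against 3.66% and 0.838% of all genes. At an unadjusted p under 0.05, 1 was higher and 1 lower, against 13.7% and 5.78% of all genes. Fasn, the fatty acid synthase, was at 11.91, 11.99, 12.01 and 11.91 in the control arrays and at 11.84, 11.78, 11.78 and 11.80 in the knockdown arrays. Every knockdown array lay below every control array, but the difference of -0.16 (SE 0.049), a level 0.897 times that of the control, did not pass (limma adjusted p = 0.106). It passed with array weights (-0.18, 0.0196), with an intensity trend (0.0152) and among genes above the median level alone (0.0318). The desaturase genes Scd1 and Scd2 had differences of -0.10 and -0.13 (limma adjusted p = 0.260 and 0.258), without overlap for Scd1. The others were Acly, which makes cytosolic acetyl-CoA from citrate (0.10), Acaca, the acetyl-CoA carboxylase of fatty acid synthesis (-0.05), and the elongase gene Elovl6 (0.03), with limma adjusted p-values of 0.321 to 0.823. In all, groups did not overlap for 5 members that were higher (Pmvk, Ebp, Dhcr7, Insig2 and Acss2; 16.7%) and for 2 that were lower (Fasn and Scd1), against 10.6% and 3.51% of all genes, and 17.3% and 4.58% of genes above the median level.

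**Figure D3:**
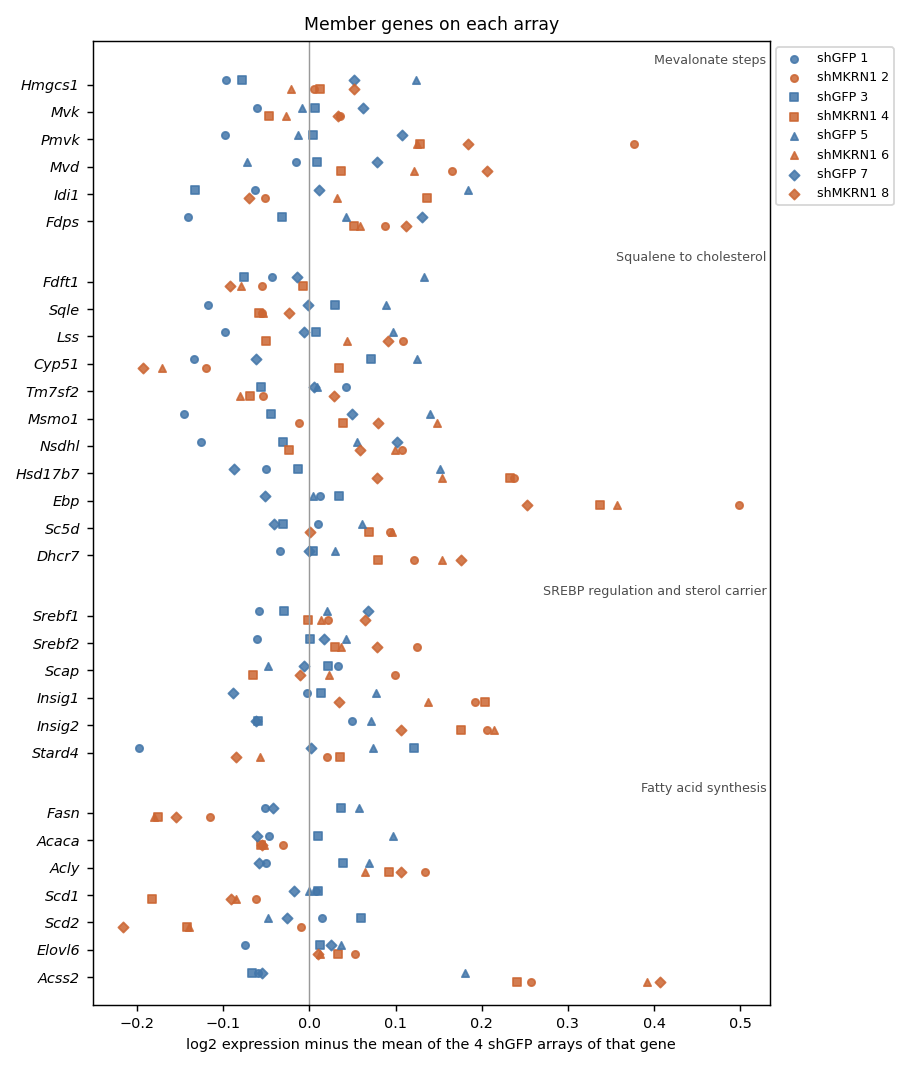
Log2 expression of the 30 measured members on each of the 8 arrays, minus the mean of the 4 shGFP arrays of that gene; blue symbols are shGFP and orange symbols shMKRN1 arrays, in pathway order. Orange symbols lie to the right of all blue ones for Ebp, Acss2, Pmvk, Dhcr7 and Insig2 and to the left for Fasn and Scd1; for the others the groups overlap.

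The members also varied within the control group. Among the 4 shGFP arrays, shGFP 1 had the lowest value for 15 of 30 members, including Hmgcs1, Fdps, Sqle, Lss, Cyp51, Msmo1 and Nsdhl. Array shGFP 5 had the highest value for 18 members, including Hmgcs1, Idi1, Fdft1, Sqle, Lss, Cyp51, Msmo1 and Insig1. Within the knockdown group shMKRN1 2 had the highest value for 14 members and shMKRN1 4 the lowest for 13. The share of all genes that were highest or lowest in these arrays was not counted. Averaged over the 30 members, arrays shGFP 1, 3, 5 and 7 deviated from the control mean of each gene by -0.06, -0.01, 0.06 and 0.00. Arrays shMKRN1 2, 4, 6 and 8 deviated by 0.08, 0.04, 0.04 and 0.04. The group means differed by 0.05, less than the distance between shGFP 1 and shGFP 5, and shGFP 5 lay among the knockdown arrays. The arrays that led this spread, shGFP 1 and shGFP 5, were not those that stood apart on the leading component. What set these control arrays apart was not tested.

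**Figure D4:**
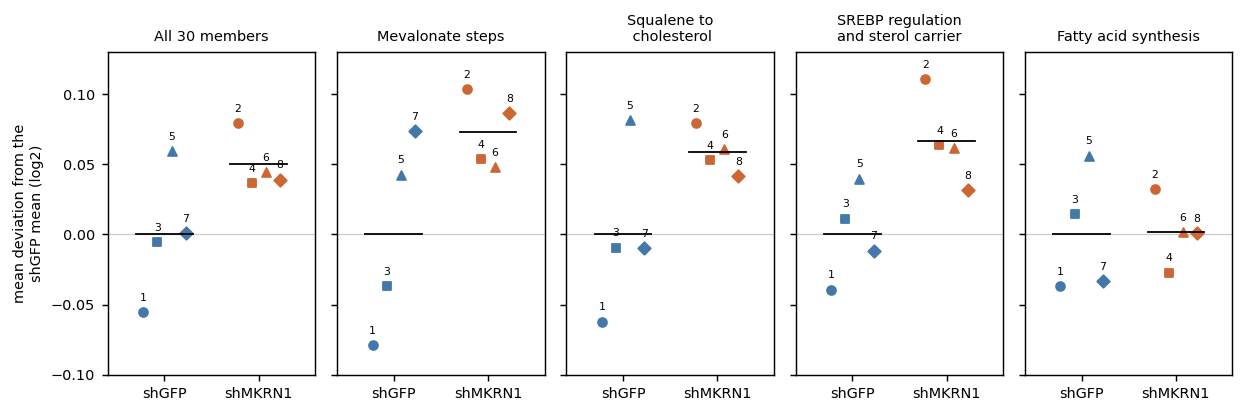
Mean deviation from the shGFP mean (log2) over all 30 members and over the members of each role, 1 point for each array with its number, and a bar for the mean of each group of 4. In every panel the groups overlap; over all members shGFP 1 is lowest at -0.06 and shMKRN1 2 highest at 0.08.

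Genes that surround the set were taken from 5 further lists with 81 names, of which 64 were measured. In sterol uptake, transport and storage 3 of 14 genes rose and none fell (3.66% and 0.838% of all genes), with a median difference of 0.11. Scarb1, a receptor that takes up cholesterol from lipoproteins, was at 9.05, 9.16, 9.09 and 9.05 in the control arrays and at 9.43, 9.39, 9.40 and 9.30 in the knockdown arrays, without overlap (0.29, SE 0.051; limma adjusted p = 0.0139). Lipa, the lysosomal acid lipase that frees cholesterol from its esters, rose by 0.33 (SE 0.079; limma adjusted p = 0.0446), and Npc2, which hands cholesterol on inside the lysosome, by 0.19 (SE 0.046; limma adjusted p = 0.0463). The call of Scarb1 was lost without shMKRN1 2 or shMKRN1 6 (limma adjusted p up to 0.0575), that of Lipa without 6 of the 8 arrays (up to 0.132) and that of Npc2 whichever array was left out (up to 0.14).

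Among other fatty acid and lipid synthesis genes 2 of 19 rose and none fell by limma (3.66% and 0.838% of all genes), with a median difference of 0.02. At an unadjusted p under 0.05, 3 were higher and 1 lower, against 13.7% and 5.78% of all genes. Lpin1, a phosphatidate phosphatase, rose by 0.29 (SE 0.061; limma adjusted p = 0.0284) and Acacb, the mitochondrial form of acetyl-CoA carboxylase, by 0.25 (SE 0.055; limma adjusted p = 0.0336). Lpin1 kept its call in 2 of the 8 fits without 1 array and Acacb in 1. None of 14 other genes of SREBP processing and sterol sensing passed limma (2 higher at an unadjusted p under 0.05), the nearest being Mbtps1, the Golgi protease that makes the opening cut in SREBP (0.14, SE 0.044; limma adjusted p = 0.108), and Ufd1, which helps extract ubiquitinated proteins from the endoplasmic reticulum (0.14, SE 0.046; limma adjusted p = 0.117). None of 8 other mevalonate and sterol enzymes passed limma, at an unadjusted p under 0.05 either, with Acat1 at 0.13 and Idi2, below the silent receptor level, at 5.29 and 5.10 nearest. Of 9 LXR receptors and targets, genes induced when oxysterols accumulate, none passed limma (3 higher and 1 lower at an unadjusted p under 0.05). Apoe, the lipoprotein component, differed by 0.18 (limma adjusted p = 0.0803) and Mylip, a ubiquitin ligase for lipoprotein receptors, by 0.17 (limma adjusted p = 0.0807). The cholesterol exporter genes Abca1 and Abcg1, named after their values were seen, lay on the other side, at -0.16 each (limma adjusted p = 0.563 and 0.125), Abcg1 without overlap between the groups.

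**Figure D5:**
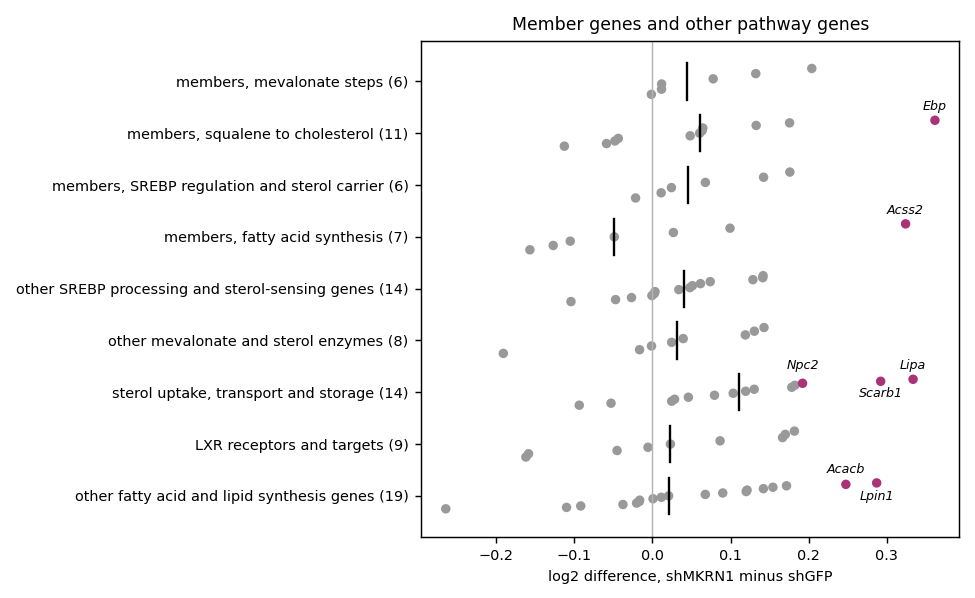
Log2 difference, shMKRN1 minus shGFP, of every measured gene in the 4 roles of the set and in 5 lists of surrounding genes; each point is a gene, coloured and named where it passed the adjusted threshold, and bars are list medians. The medians lie between -0.05 (fatty acid synthesis) and 0.11 (sterol uptake, transport and storage).

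Markers of other cells were read beside these results. Of 16 fibroblast markers 2 rose and none fell by limma (3.66% and 0.838% of all genes). At an unadjusted p under 0.05, 3 were higher and 1 lower, against 13.7% and 5.78% of all genes. The 2 that rose by limma were Pdgfrb (0.35, SE 0.077; limma adjusted p = 0.0342) and Col1a1 (0.37, SE 0.089; limma adjusted p = 0.0486), each keeping its call in 1 of the 8 fits without 1 array. Named after their values were seen, Cd44 differed by 0.47 (limma adjusted p = 0.0502) and S100a4 by -0.27 (limma adjusted p = 0.118), both without overlap. In both groups 4 of the list lay below the silent receptor level (Prrx1, Lum, Postn and S100a4). The mean level of that list was 7.49 to 7.61 over the control arrays and 7.52 to 7.71 over the knockdown arrays. Of 13 primitive endoderm markers none passed limma (1 higher and 1 lower at an unadjusted p under 0.05), with mean levels of 7.48 to 7.71 and 7.47 to 7.66. The part of such cells in the rises of Ebp, Acss2 and the lysosomal genes was not tested.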

How the data were processed

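Total RNA of 8 samples was measured on Affymetrix gene arrays, 4 of each hairpin, grouped by their titles. The deposited log2 values come from RMA, a tool named in the submitters' processing notes without a version. RMA corrects background, equalises the distributions of the arrays and gives 1 value a probe set, so a change shared by most genes is not visible. Of 34760 probe sets, 21640 had 1 symbol in the platform annotation, 1321 had several and were not used for genes, and 11799 were not named. For a symbol with several probe sets (954 genes), that with the highest mean was kept.

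Groups were compared with limma 3.58.1 in R 4.3.3 (lmFit, eBayes, no covariate, no filter, 6 residual degrees of freedom), two-sided, with Benjamini-Hochberg adjustment over 19937 genes and a threshold of 0.05. The fit was tested on simulated data. The labels do not say whether samples came from separate transfections, and the spread behind the p-values may therefore be technical; the number of arrays limits the precision. Members and lists were chosen with earlier results of these data known. Named genes were Mkrn1, every member, called genes of the other lists (up to 5 a list, else the 2 with the smallest p) and called markers (up to 4). Other values were marked as chosen later or given as counts. Promoter motifs were searched on both strands with Python 3.11.15. Alternatives were 2 scalings, a filter, the mean of probe sets, adjustment over all probe sets, array weights, an intensity trend with a robust prior, and leaving out arrays.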

Additional observations from a re-analysis of the deposited data

Results flagged for a closer look

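Among 90 sets of 4 arrays (45 named genes in each group), 4 held an array far from the other 3, and chance gives about 5% of such sets. Acss2 was high in shGFP 5 (8.10, against 7.85 to 7.87 in the other controls). Sqle was high in shMKRN1 8 (10.50, against 10.46 to 10.47) and Acaca in shMKRN1 2 (10.03, against 10.00 to 10.01), both by very small amounts. Mylip was low in shMKRN1 2 (8.42, against 8.51 to 8.52).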

How the results depend on the processing

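Mkrn1 stayed lower and past the threshold under every alternative (-0.63 to -0.57 over fits without 1 array). The member median lay between 0.02 and 0.08 over those fits and between 0.02 and 0.06 over the other settings tried. The count of members called higher, 2, was 4 among genes above the median level alone (Insig2 and Dhcr7 added) and with array weights (Insig2 and Hsd17b7 added), and 1 adjusted over all probe sets; without 1 array it ranged from 1 to 2. Members called lower went from 0 to 1 (Fasn) among genes above the median level, with array weights and with an intensity trend and robust prior; without 1 array the count was 0 throughout. Over all genes the share called in either direction rose alongside, from 4.49% to 16% with the filter, 13.8% with array weights and 7.77% with the trend, and was 1.9% adjusted over all probe sets. By role, the squalene to cholesterol count of 1 higher became 2 with the filter and with array weights (1 without any single array), the regulators' 0 became 1 in both (0 without any single array), and the fatty acid synthesis count of 1 higher became 0 adjusted over all probe sets and ranged from 0 to 1 without 1 array, while its lower count became 1 in the 3 settings that called Fasn. Of the surrounding lists, SREBP processing went from 0 to 2 higher with the filter and to 1 with array weights or the trend. Sterol uptake, 3 higher, had 1 adjusted over all probe sets and 0 to 2 without 1 array. The LXR list went from 0 to 3 higher with the filter, 2 with array weights and 1 with the trend, and from 0 to 1 lower with the filter and array weights. Other fatty acid and lipid genes, 2 higher, had 0 adjusted over all probe sets and 0 to 1 without 1 array, and 1 lower with quantile normalization, the filter and the trend. The filter tests 9968 genes in place of 19937 and the wider adjustment 34760 probe sets; for the other settings the cause was not tested. With shGFP 7 and shMKRN1 8 both left out, an alternative chosen after seeing the data, 1 member was called higher (Ebp), 0 in fatty acid synthesis and 1 among other fatty acid and lipid genes. No called difference changed direction; 7 members with differences of at most 0.05 in size changed sign in at least 1 setting. No paired analysis was run because the labels do not state which arrays belong together. The sample numbers run from 1 to 8 with the hairpins alternating, so the groups share none, and a block on neighbouring numbers was not tried. Arrays shGFP 7 and shMKRN1 8 have neighbouring numbers, and both lay above the other arrays of their group on the leading component. A shift shared by neighbouring arrays would count as error in the unpaired fit, and this was not tested.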
